A study of Homo sapiens with 12 samples.

Results

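The inhibin, activin and follistatin genes were followed in NCI-H295R, an established cell line from a human adrenocortical carcinoma, which still makes steroid hormones. They were taken as the 10 genes of the count table with the symbols INHA, INHBA, INHBB, INHBE, FST, FSTL3, ACVR1B, ACVR2A, ACVR2B and TGFBR3, out of 60617 genes in all. Each symbol matched 1 gene, and 9 of the 10 passed the filter on low counts, INHBB being the exception. Activins are dimers of β subunits (INHBA, INHBB and the less studied INHBE), and inhibins pair a β subunit with the α subunit INHA. Activins bind the type II receptors ACVR2A and ACVR2B, which recruit the type I receptor ACVR1B, and the signal passes to the nucleus through SMAD proteins. Inhibin occupies the type II receptors with the help of betaglycan (TGFBR3), while follistatin (FST) and FSTL3 bind activin and keep it from its receptors. INHA is known as a product of steroid-making cells of the adrenal cortex and gonads, and in mice its loss leads to gonadal tumours and, after removal of the gonads, to adrenocortical ones.

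Polyadenylated RNA was sequenced from 4 groups of 3 biological replicates, all harvested after 96 h. The EZH2i group was given 62 µM EPZ-6438, an inhibitor of the histone methyltransferase EZH2, for 96 h. The CBPi group was given 26 µM PRI-724, which keeps the coactivator CBP from pairing with β-catenin, for 96 h. The FSK group was given DMSO for 48 h and then 10 µM forskolin, an activator of adenylyl cyclase that raises cAMP, for 48 h, so its exposure was shorter than that to the inhibitors. The baseline group was given DMSO for 96 h, and both inhibitor doses were IC50 doses per the labels. All replicates are cultures of the same line, so p-values measure the spread between cultures only. Library totals ran between 29.5 and 31.5 megacounts with EZH2i, between 20.6 and 28.8 with CBPi, between 23.4 and 25.4 with FSK, and between 21 and 27 at baseline. CBPi replicate 2 stood furthest from its replicates, where the chi-square over genes, per degree of freedom, was 13.2 and 12.1 against the others in its group and 2.56 to 6.68 for the remaining pairs of all groups. All 9 adrenocortical markers examined (NR5A1, STAR, CYP11A1, CYP17A1, CYP21A2, HSD3B2, FDX1, SCARB1 and MC2R) were detected in each group. Their summed CPM (counts scaled by TMM to a common library size) lay at 1860 to 1890 in EZH2i libraries, 1620 to 1820 in CBPi libraries, 9280 to 9480 in FSK libraries and 3900 to 4090 in baseline libraries. Granulosa and Sertoli cells, the main gonadal sources of inhibin, were looked for with 7 markers that summed to 50.6 to 83.5 CPM over all libraries. Most of the sum at baseline was AMH (29.4 ± 2 CPM), GATA4 (13.3 ± 0.4) and CYP19A1 (8.61 ± 0.23). SOX9 (1.22 ± 0.49), DHH (0.252 ± 0.056) and FOXL2 (0.0765 ± 0.095) were low at baseline, and FSHR was at 0 outside EZH2i. The chromaffin markers TH, DBH, PNMT, CHGA and CHGB summed to 58.4 to 65.7 CPM in EZH2i libraries, 97.7 to 101 in CBPi libraries, 23.3 to 25 in FSK libraries and 50.4 to 53.4 in baseline libraries. Nearly all of this was CHGB (47.9 ± 1.1 CPM at baseline) and CHGA (3.98 ± 0.4 CPM), while TH, DBH and PNMT were at 0 at baseline. Fibroblast markers summed to 13.3 to 35.8 CPM, endothelial ones to 0.81 to 4.2 CPM, and leukocyte ones to 1.16 to 2.51 CPM.

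Set against one another per length, as CPM per kilobase of exon, follistatin and the type I receptor were the most abundant transcripts of the family at baseline and the β subunits the scarcest. FST averaged 19.9 ± 0.6 CPM per kb and ACVR1B 15.4 ± 0.41 (SD, n = 3). TGFBR3 followed at 6.95 ± 0.39, INHA at 5.79 ± 0.18 and ACVR2B at 2.62 ± 0.12, and neighbours in this order did not overlap between libraries. ACVR2A (2.37 ± 0.057) and FSTL3 (2.31 ± 0.053) overlapped, as did INHBE (0.518 ± 0.17) and INHBA (0.496 ± 0.092), and INHBB was lowest at 0.0896 ± 0.024. Each treatment reordered the ligand subunits in this ranking. INHA was the fourth gene of the 10 with FSK and at baseline, but the ninth with EZH2i and with CBPi. INHBA was the eighth with EZH2i, the fourth with CBPi and the third with FSK, against the ninth at baseline. The libraries of INHBA overlapped those of the next gene down with CBPi (TGFBR3) and with FSK (INHA). ACVR1B was first or second in every group.

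**Figure D1:**
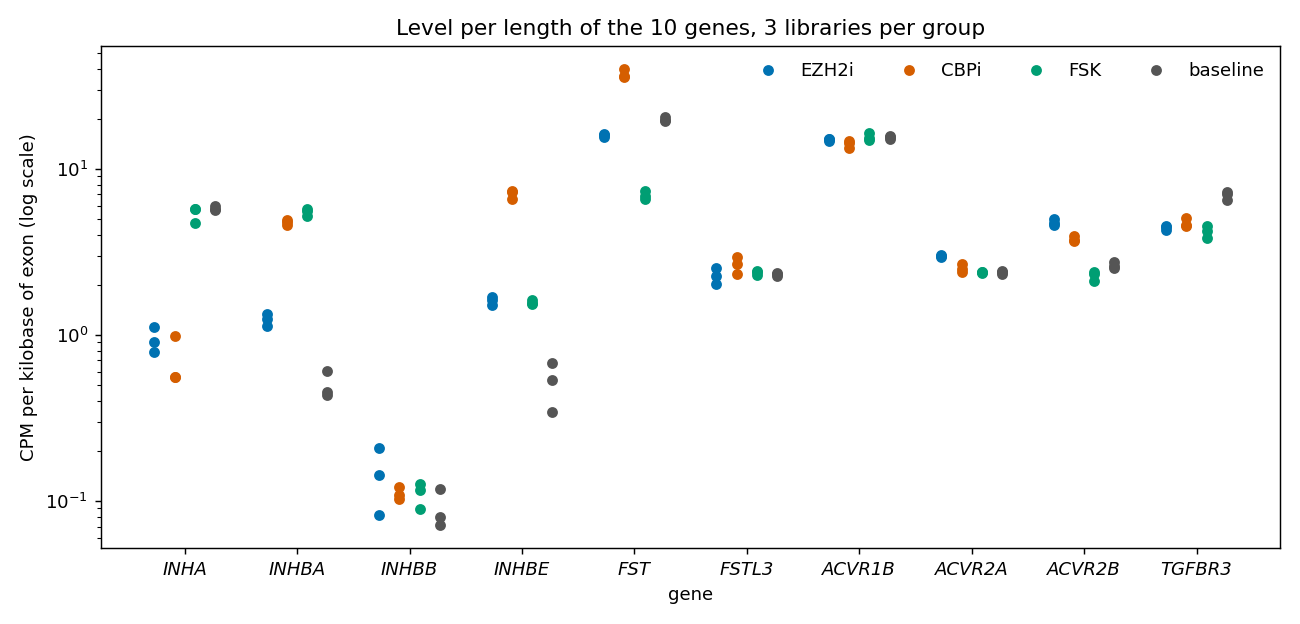
Level of each of the 10 genes in TMM-scaled CPM per kilobase of exon on a log scale, 1 point per library, 3 libraries per group. INHA is low with EZH2i and CBPi, INHBA and INHBE are lowest at baseline among the groups, and the group means of ACVR1B lie between 14.1 and 15.5 CPM per kb.

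Against baseline, 7 of the 9 genes tested passed with EZH2i (4 higher, 3 lower), 7 with CBPi (4 higher, 3 lower) and 5 with FSK (2 higher, 3 lower), at an adjusted p under 0.05 in edgeR's quasi-likelihood test. These shares were 77.8%, 77.8% and 55.6%. The share of all 20360 genes tested that passed was 57.8% with EZH2i, 58.9% with CBPi and 50.6% with FSK, so a call by itself is common in these data. By direction, 29.5% of all genes rose and 28.3% fell with EZH2i, 29.8% rose and 29% fell with CBPi, and 25.5% rose and 25.1% fell with FSK. The 3 treated libraries did not overlap the 3 baseline ones for 7 of the 9 genes with EZH2i, 7 with CBPi and 5 with FSK, where 65.9%, 62.1% and 57.5% of all genes were separate in the same way. The 3 comparisons share the baseline libraries. The median log2 fold change of the 9 genes was -0.03 with EZH2i, 0.2 with CBPi and 0.01 with FSK, against 0.02, 0.01 and 0.01 over all genes, with members on both sides of 0.

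**Figure D2:**
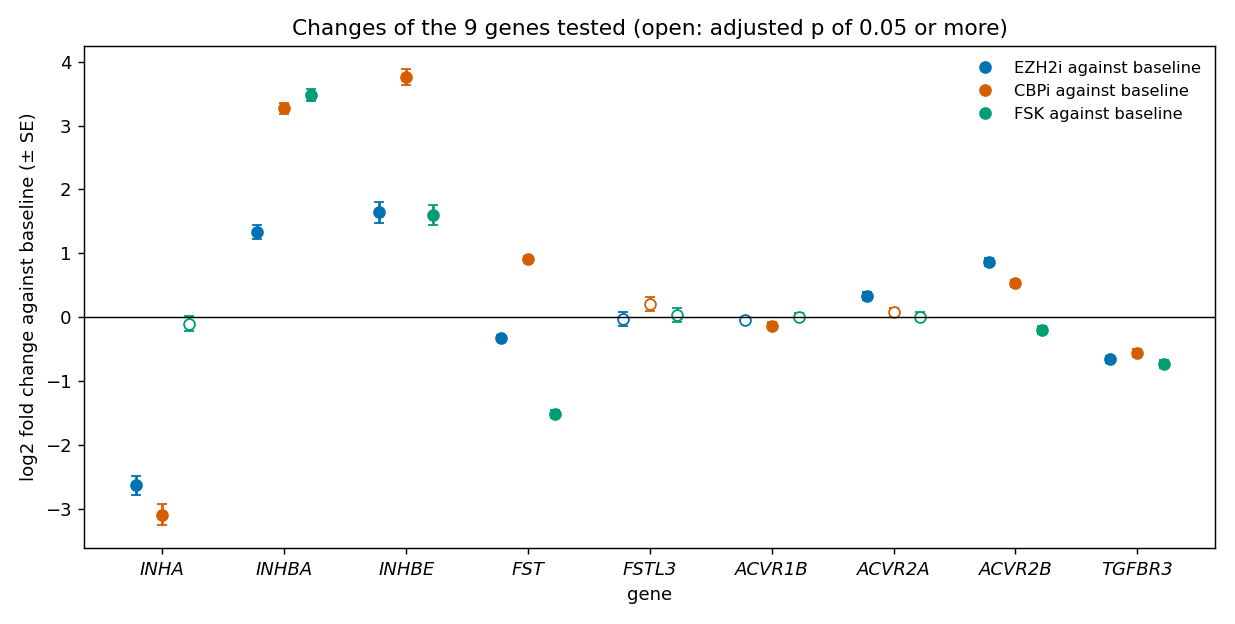
Log2 fold change of each tested gene against baseline, with its SE, for EZH2i, CBPi and FSK. Filled points passed at an adjusted p under 0.05 and open points did not. INHA is at -2.63 and -3.09 with the inhibitors and -0.10 with FSK, and FST is at -0.33, 0.91 and -1.52 with EZH2i, CBPi and FSK.

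INHA (chromosome 2, 219569162 to 219575713, plus strand, GRCh38, GENCODE release 29), the α subunit that makes an inhibin of an activin subunit, fell with both inhibitors and did not pass with forskolin. Its CPM were 1.48, 1.29 and 1.82 with EZH2i, 1.6, 0.912 and 0.905 with CBPi, 7.72, 9.39 and 9.37 with FSK, and 9.21, 9.42 and 9.79 at baseline. The libraries of each inhibitor lay below all those of FSK and baseline, and the FSK and baseline libraries overlapped. The fall was 6.17-fold with EZH2i (log2 fold change -2.63 ± 0.15 SE, adjusted p = 9.84e-12) and 8.53-fold with CBPi (-3.09 ± 0.17 SE, adjusted p = 4.1e-12). By log2 fold change INHA stood 69th from the bottom of 20360 genes with EZH2i and 65th with CBPi. With FSK the log2 fold change was -0.10 (95% interval -0.35 to 0.15, adjusted p = 0.504). Adrenocortical markers moved with it under the inhibitors, where 9 of 9 fell, but not under FSK, where 9 of 9 rose, and their part in the fall of INHA was not tested. In bulk RNA, fewer cells with a transcript and less of it per cell cannot be told apart. INHA overlaps OBSL1 on the other strand, with 0 shared exon bases in GENCODE. OBSL1 was lower with EZH2i (log2 fold change -0.17, adjusted p = 0.023), CBPi (-0.32, adjusted p = 0.000203) and FSK (-0.32, adjusted p = 0.000234). As the strand setting of the counts is not given, reads of INHA and OBSL1 may be mixed, which was not tested.

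The INHA promoter is shown because INHA is a textbook cAMP target in gonadal cells and forskolin was one of the treatments. The 250 bases before the RefSeq start, which lies inside the GENCODE span, are given 5′ to 3′ (chr2:219572060-219572309, plus strand, GRCh38.p14), with capitals for the variant cAMP response element TGCGTCA at -140 to -134 from the start, a motif added after the sequence had been read.
INHA: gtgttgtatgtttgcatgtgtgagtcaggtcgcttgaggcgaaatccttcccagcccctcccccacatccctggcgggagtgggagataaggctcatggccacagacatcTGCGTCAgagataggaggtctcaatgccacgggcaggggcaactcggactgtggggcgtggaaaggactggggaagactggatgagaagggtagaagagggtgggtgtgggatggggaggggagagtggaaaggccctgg
These letters occur on either strand in 2.09% of 35116 RefSeq promoter windows of this length, and the core TGACG, which overlaps them on the other strand, in 21.2%. The palindrome TGACGTCA (1.65% of windows) is not in this window.

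INHBA (chromosome 7, 41667168 to 41705834, minus strand), the βA subunit of activin A, rose with all 3 treatments. Its CPM were 11, 10.3 and 9.4 with EZH2i, 40.8, 39.5 and 38.1 with CBPi, 46.1, 47.7 and 42.9 with FSK, and 3.74, 3.61 and 4.99 at baseline. No library of any treatment overlapped baseline, and those of EZH2i lay between baseline and the other treatments. The rise was 2.51-fold with EZH2i (log2 fold change 1.33 ± 0.11 SE, adjusted p = 2.18e-09), 9.67-fold with CBPi (3.27 ± 0.09 SE, adjusted p = 2.48e-16) and 11.2-fold with FSK (3.48 ± 0.09 SE, adjusted p = 5.78e-17). By log2 fold change INHBA stood 33rd from the top of 20360 genes with CBPi and 52nd with FSK, against 774th with EZH2i. The antisense gene INHBA-AS1, which overlaps the INHBA locus, was at 0.357 ± 0.096 CPM with EZH2i, 1.23 ± 0.26 with CBPi, 1.27 ± 0.2 with FSK and 0.501 ± 0.26 at baseline (SD, n = 3). It rose with CBPi (log2 fold change 1.34, adjusted p = 0.00119) and with FSK (1.38, adjusted p = 0.00112) and did not pass with EZH2i (-0.44, adjusted p = 0.346). The strand setting of the counts is not given, so reads of the pair may be mixed, although their exons share 0 bases.

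The INHBA promoter is shown because this gene rose most with forskolin within the family. The 250 bases before the RefSeq start (chr7:41703091-41703340, minus strand, GRCh38.p14) are given 5′ to 3′, with capitals for TGATGTCA at -105 to -98, which differs from the palindromic cAMP response element by 1 letter and was searched for after the sequence had been read.
INHBA: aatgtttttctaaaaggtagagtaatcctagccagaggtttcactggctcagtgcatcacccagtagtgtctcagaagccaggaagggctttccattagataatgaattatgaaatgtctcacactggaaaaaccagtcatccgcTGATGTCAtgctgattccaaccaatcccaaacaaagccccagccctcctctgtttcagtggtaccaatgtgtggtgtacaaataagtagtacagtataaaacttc
On either strand TGATGTCA occurs in 2.37% of the promoter windows. RefSeq windows were matched for 9 of the 10 genes. The other motifs searched were the SF-1 element CAAGGTCA, TCF/LEF core CTTTGAT, stress element TGATGNAAN and SMAD palindrome GTCTAGAC. They were held by 1.14%, 2.26%, 3.13% and 0.182% of all windows. INHBE had no window, so its promoter was not searched for the stress element or any other motif. Of these other motifs only CTTTGAT was found, at -61 to -55 in an ACVR1B window inside the gene (chr12:51953134-51953383). The ACVR1B window at the start of the GENCODE span (chr12:51951449-51951698) had none.

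INHBE (chromosome 12, 57452323 to 57459280, plus strand), the βE subunit, is mainly a liver gene and is known as a target of the integrated stress response. It rose with each treatment and most with CBPi. Its CPM were 5.19, 4.63 and 4.9 with EZH2i, 22.4, 20 and 22 with CBPi, 4.68, 4.97 and 4.71 with FSK, and 1.05, 1.62 and 2.07 at baseline. The treated libraries all lay above baseline, and those of EZH2i and FSK overlapped each other. The rise was 3.11-fold with EZH2i (log2 fold change 1.64 ± 0.16 SE, adjusted p = 2.17e-08), 13.5-fold with CBPi (3.76 ± 0.13 SE, adjusted p = 4e-15) and 3.03-fold with FSK (1.60 ± 0.16 SE, adjusted p = 5.65e-08). Integrated stress response genes moved with it. Of 14 tested, 12 rose and 1 fell with EZH2i, 13 rose and 1 fell with CBPi, and 10 rose and 2 fell with FSK. Of all genes 57.8%, 58.9% and 50.6% passed. The median log2 fold changes of the list were 1.18, 2.16 and 1.04, against 0.02, 0.01 and 0.01 over all genes. The genes of the list did not all follow the group levels of INHBE. TRIB3, a pseudokinase gene, was highest with FSK, at 169 ± 1 CPM with EZH2i, 422 ± 38 with CBPi and 493 ± 15 with FSK, against 71.2 ± 1.6 at baseline. NUPR1, a stress-induced chromatin protein gene, rose with both inhibitors but fell with FSK, at 21.6 ± 1.5 CPM with EZH2i, 47.7 ± 4.5 with CBPi and 3.42 ± 0.7 with FSK, against 4.62 ± 0.37 at baseline. VLDLR fell with each treatment. The part of this response in the rise of INHBE was not tested.

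INHBB (chromosome 2, 120346143 to 120351808, plus strand), the βB subunit of activin B, was close to the limit of detection. It had 15, 8 and 20 counts with EZH2i, 8, 8 and 10 with CBPi, 7, 9 and 9 with FSK, and 5, 7 and 8 at baseline. The groups overlapped, and the gene was too low to be kept for the test. Without the filter its log2 fold change was 0.69 with EZH2i (adjusted p = 0.23), 0.31 with CBPi (adjusted p = 0.69) and 0.29 with FSK (adjusted p = 0.742). Leaving out EZH2i replicate 2, its lowest library with EZH2i, brought it past the filter with a log2 fold change of 0.96 (adjusted p = 0.039). It was also kept in a fit of EZH2i and baseline alone (0.68, adjusted p = 0.157), and did not pass. The same held without baseline replicate 1 (0.57, adjusted p = 0.289), 2 (0.61, 0.283) or 3 (0.91, 0.105). A change with EZH2i was therefore not resolved at this depth. The related INHBC, a β subunit of the liver next to INHBE in the genome, was not tested either, with 30 counts over the EZH2i libraries, 21 over CBPi, 23 over FSK and 6 over baseline.

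**Figure D3:**
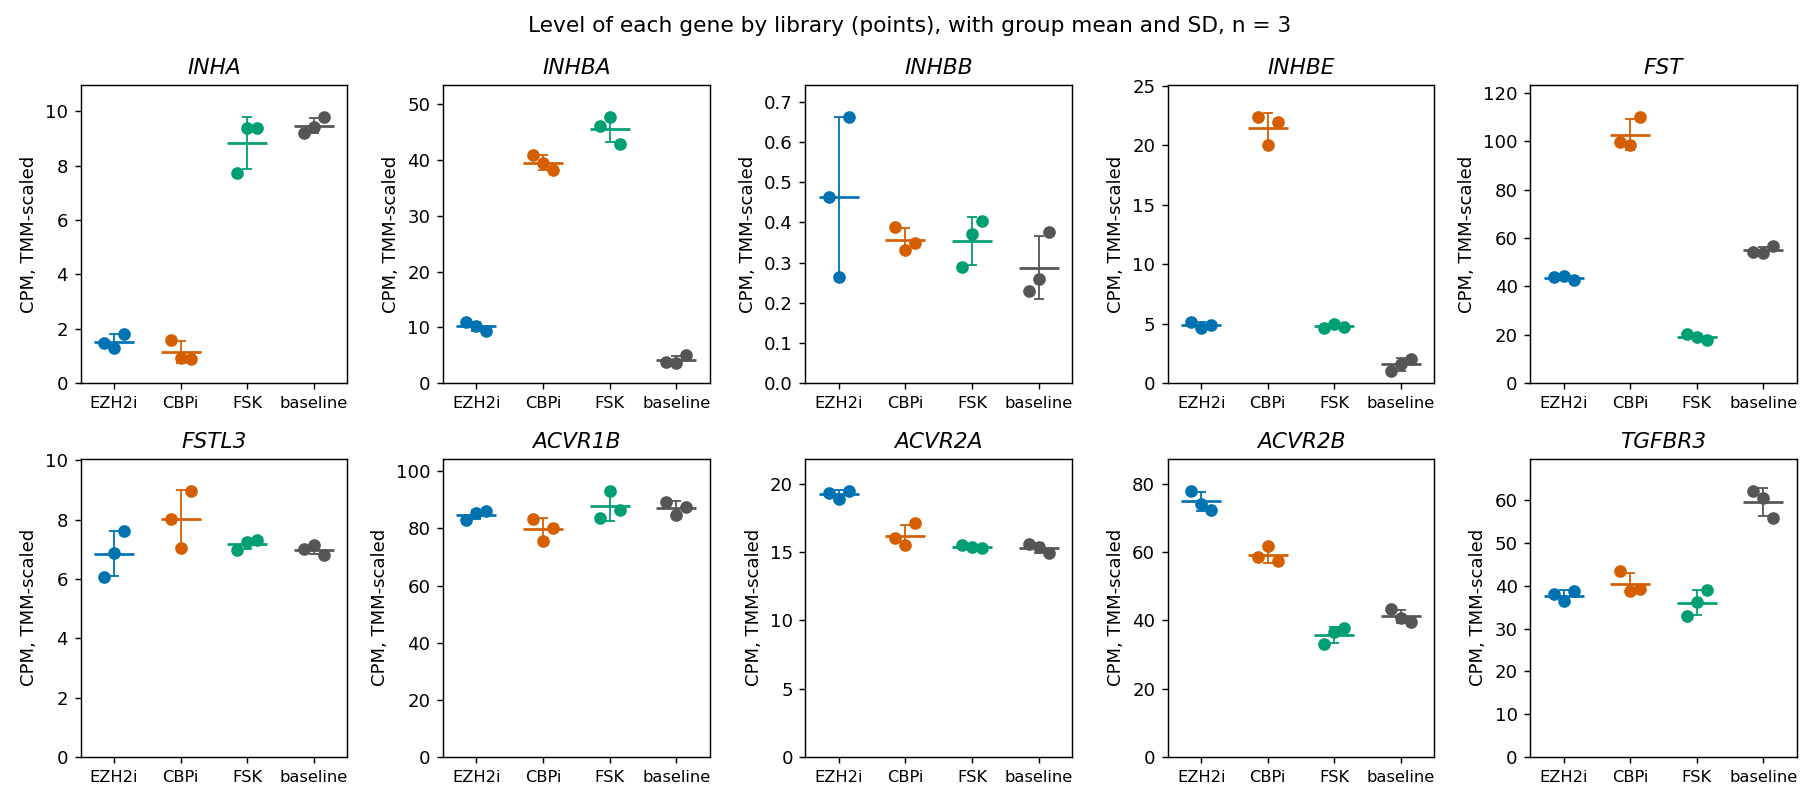
TMM-scaled CPM of each of the 10 genes in each library (points), with the group mean and SD (n = 3). INHBA is at 9.4 CPM or more in the treated libraries and at most 4.99 at baseline, and FST is highest with CBPi and lowest with FSK.

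FST (chromosome 5, 53480409 to 53487134, plus strand), whose product binds activin almost irreversibly, changed in opposite directions with CBPi and FSK. Its CPM were 44, 44.2 and 42.6 with EZH2i, 99.6, 98.4 and 110 with CBPi, 20.3, 18.9 and 18 with FSK, and 54, 53.8 and 56.7 at baseline. The 4 groups did not overlap at any point. FST fell slightly with EZH2i (log2 fold change -0.33 ± 0.05 SE, adjusted p = 2.98e-05), rose 1.87-fold with CBPi (0.91 ± 0.05 SE, adjusted p = 1.32e-11) and fell 2.87-fold with FSK (-1.52 ± 0.06 SE, adjusted p = 2.27e-14). The neuroendocrine granule gene CHGB moved with FST in CBPi and FSK, at 93.5 ± 2.2 CPM with CBPi and 19 ± 0.92 with FSK against 47.9 ± 1.1 at baseline, but rose with EZH2i (57.9 ± 3.3 CPM), where FST fell, and its part was not tested. FSTL3 (chromosome 19, 676365 to 683399, plus strand), the other activin-binding protein of the family, did not pass in any of the 3 comparisons. It had 6.08, 6.89 and 7.61 CPM with EZH2i, 8.04, 7.05 and 8.98 with CBPi, 6.99, 7.24 and 7.31 with FSK, and 7.02, 7.14 and 6.82 at baseline. Each treatment overlapped baseline, and the log2 fold changes had 95% intervals of -0.25 to 0.19 (EZH2i), -0.02 to 0.42 (CBPi) and -0.19 to 0.26 (FSK). Without CBPi replicate 2, its lowest CBPi library, FSTL3 passed with CBPi (log2 fold change 0.28, adjusted p = 0.033). It also passed as lower with EZH2i than with CBPi when CBPi replicate 2 (-0.32, adjusted p = 0.0186) or EZH2i replicate 3 (-0.31, adjusted p = 0.0337) was left out, but not with all libraries (-0.23, adjusted p = 0.0734).

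Among the receptors, ACVR2B rose with both inhibitors, TGFBR3 fell with all 3 treatments, and ACVR1B was nearly level. ACVR2B (chromosome 3, 38453851 to 38493142, plus strand), a type II receptor, had 78, 74.2 and 72.3 CPM with EZH2i, 58.6, 61.9 and 57.3 with CBPi, 33, 36.5 and 37.7 with FSK, and 43.2, 40.7 and 39.6 at baseline. The 4 groups were separate, with EZH2i highest and FSK lowest. The log2 fold change was 0.86 ± 0.06 SE with EZH2i (adjusted p = 7.55e-11), 0.53 ± 0.06 with CBPi (adjusted p = 1.39e-07) and -0.20 ± 0.06 with FSK (adjusted p = 0.00698). Without FSK replicate 1 the last of these no longer passed (-0.15, adjusted p = 0.0556). An antisense gene at this locus, ACVR2B-AS1, whose exons share 0 bases with ACVR2B, went the same way with EZH2i (log2 fold change 0.43) and FSK (-0.84) and the other way with CBPi (-0.38), each past the threshold. ACVR2A (chromosome 2, 147844517 to 147930826, plus strand), the other type II receptor, rose 1.26-fold with EZH2i, to 19.2 ± 0.33 CPM against 15.3 ± 0.37 at baseline (log2 fold change 0.33 ± 0.06 SE, adjusted p = 0.000166). It was at 16.2 ± 0.81 CPM with CBPi and 15.4 ± 0.1 with FSK, and neither passed (95% intervals of the log2 fold change -0.05 to 0.22 and -0.13 to 0.15). ACVR2A shares 430 exon bases with ORC4 on the other strand, so part of its counts may belong to that gene. ORC4 did not pass with EZH2i, at 38.1 ± 1.7 CPM against 41.5 ± 2.1 at baseline (log2 fold change -0.13, adjusted p = 0.0758). Its part in the counts of ACVR2A was not tested.

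TGFBR3 (chromosome 1, 91680343 to 91906335, minus strand), the betaglycan that strengthens inhibin binding, had 38.1, 36.4 and 38.8 CPM with EZH2i, 43.4, 38.9 and 39.4 with CBPi, 33, 36.3 and 39 with FSK, and 62.3, 60.6 and 55.9 at baseline. Every treated library lay below every baseline library, and the ranges of the 3 treatments lay close together. The fall was 1.58-fold with EZH2i (log2 fold change -0.66 ± 0.06 SE, adjusted p = 1.89e-08), 1.47-fold with CBPi (-0.56 ± 0.06 SE, adjusted p = 2.11e-07) and 1.65-fold with FSK (-0.73 ± 0.06 SE, adjusted p = 6.82e-09). ACVR1B (chromosome 12, 51951667 to 51997078, plus strand), the type I receptor for activin, was at 84.8 ± 1.6 CPM with EZH2i, 79.7 ± 3.9 with CBPi, 87.7 ± 5 with FSK and 87.3 ± 2.3 at baseline. With EZH2i and FSK it did not pass (95% intervals of the log2 fold change -0.14 to 0.06 and -0.10 to 0.11). With CBPi it fell by 0.13 on the log2 scale (adjusted p = 0.0303), a call lost without baseline replicate 1 or 3 or CBPi replicate 2 or 3, with adjusted p of 0.0857, 0.0612, 0.0807 and 0.0519.

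Ratios of counts per kilobase within a library, which need no scaling between libraries, put these genes together. They describe mRNA and not secreted protein. The ratio of INHBA to INHA was 1.46, 1.58 and 1.02 with EZH2i, 5.04, 8.56 and 8.32 with CBPi, 1.18, 1 and 0.904 with FSK, and 0.0802, 0.0756 and 0.101 at baseline. Per kilobase INHA was thus the more abundant of the pair at baseline, and the 2 were about level with FSK and in EZH2i replicate 3. In the remaining libraries of the inhibitors INHBA was the more abundant. These levels rest on the deposited lengths, 8284 bases for INHBA and 1636 for INHA. In counts, INHBA stood at 3231 against 624 for INHA over the FSK libraries, and at 286 against 666 over baseline. The mean log2 ratio was higher by 3.97 with EZH2i, 6.39 with CBPi and 3.59 with FSK. Each had an exact permutation p of 0.1 (two-sided), the smallest that 3 against 3 libraries can give. The components differed. With FSK the INHBA term rose and INHA did not pass, whereas with either inhibitor INHA fell while INHBA rose.

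The ratio of FST to the sum of INHBA and INHBB, the binding protein to its ligand subunits, was 10.9, 12.1 and 11.6 with EZH2i, 7.17, 7.33 and 8.49 with CBPi, 1.3, 1.17 and 1.23 with FSK, and 37.6, 37.9 and 28.7 at baseline. It was lower with every treatment, with log2 differences of -1.58 with EZH2i, -2.17 with CBPi and -4.80 with FSK (exact permutation p = 0.1 each). Even with CBPi, where FST itself rose, INHBA rose further. The ratio of FSTL3 to the same sum averaged 1.65 ± 0.26 with EZH2i, 0.543 ± 0.078 with CBPi and 0.423 ± 0.027 with FSK, against 4.04 ± 0.79 at baseline (SD, n = 3). INHBB to INHA averaged 0.15 ± 0.041 with EZH2i, 0.169 ± 0.039 with CBPi, 0.0204 ± 0.0015 with FSK and 0.0154 ± 0.0037 at baseline, on few INHBB counts. Of the 12 differences in these 4 ratios, 11 had the exact p of 0.1 and INHBB to INHA with FSK one of 0.2, and none could pass 0.05 in this design.

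**Figure D4:**
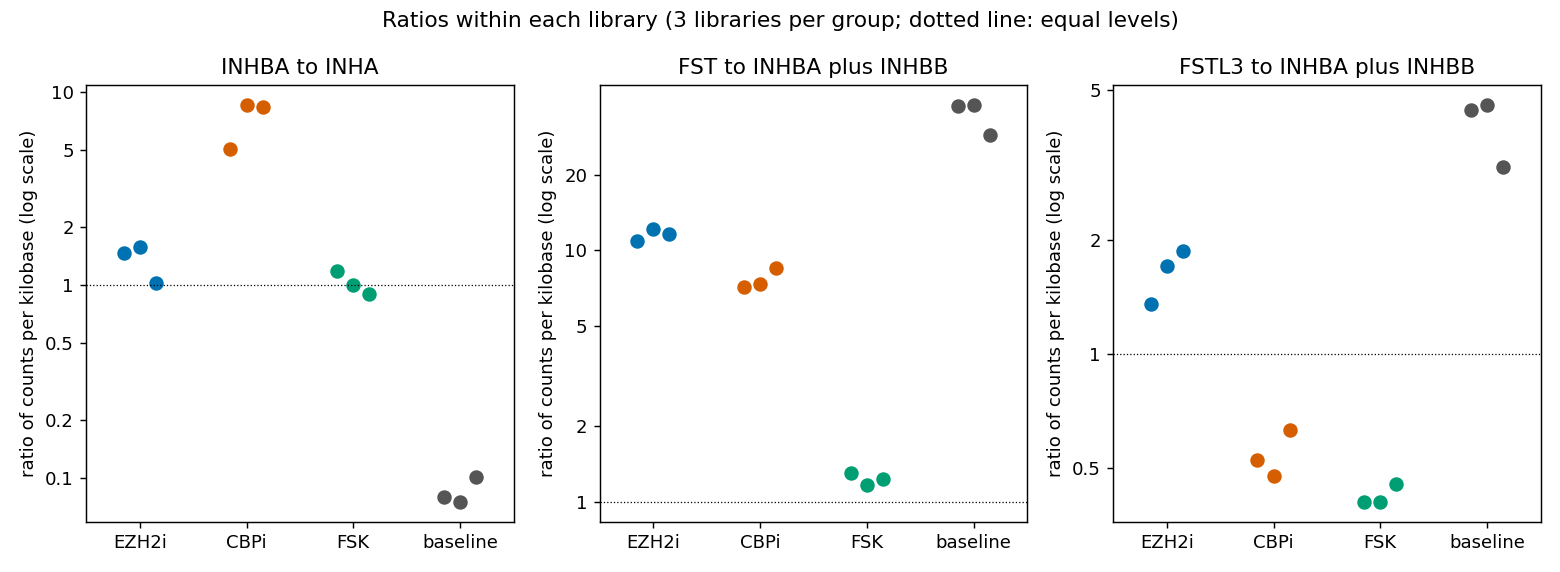
Ratio of counts per kilobase between genes within each library, on a log scale, with 1 point per library and a dotted line where the levels are equal. INHBA to INHA is 0.904 or more in every treated library and at most 0.101 at baseline, and FST to INHBA plus INHBB is at most 1.3 with FSK and at least 28.7 at baseline.

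Direct tests between treatments showed where their effects on the family differed. For EZH2i against CBPi 5 of 9 genes passed (2 higher, 3 lower), where 43.9% of all genes did (21.7% higher, 22.2% lower). For EZH2i against FSK it was 5 (3 higher, 2 lower), where 61.6% of all genes passed (30.3% higher, 31.3% lower). For CBPi against FSK it was 7 (4 higher, 3 lower), where 58.8% of all genes passed (29.3% higher, 29.5% lower). INHBA was 3.85-fold lower with EZH2i than with CBPi (log2 fold change -1.94 ± 0.08 SE, adjusted p = 2.16e-13) and 4.44-fold lower than with FSK (-2.15 ± 0.08 SE, adjusted p = 2.46e-15). CBPi and FSK were close for this gene, with CBPi lower by a small margin (-0.21 ± 0.07 SE, adjusted p = 0.0136). That call was lost without CBPi replicate 3 (adjusted p = 0.0572) or FSK replicate 2 (adjusted p = 0.0624), and with scaling by library size only (adjusted p = 0.0842). INHBE was 4.36-fold lower with EZH2i than with CBPi and 4.47-fold higher with CBPi than with FSK. Between EZH2i and FSK it did not pass (log2 fold change 0.04, 95% interval -0.22 to 0.30, adjusted p = 0.813). FST was 2.36-fold lower with EZH2i than with CBPi, 2.29-fold higher with EZH2i than with FSK, and 5.38-fold higher with CBPi than with FSK (log2 fold change 2.43 ± 0.06 SE, adjusted p = 6.01e-18).

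INHA was 5.75-fold lower with EZH2i and 7.95-fold lower with CBPi than with FSK. Between the inhibitors it did not pass (log2 fold change 0.47, 95% interval 0.01 to 0.93, adjusted p = 0.0948), except without CBPi replicate 1, its highest CBPi library, where it was higher with EZH2i (0.75, adjusted p = 0.0124). ACVR2B was higher with EZH2i than with CBPi (log2 fold change 0.34 ± 0.05 SE) and FSK (1.07 ± 0.06 SE), and higher with CBPi than with FSK (0.73 ± 0.06 SE). ACVR2A was higher with EZH2i than with CBPi (0.24 ± 0.06 SE, adjusted p = 0.00331) and FSK (0.32 ± 0.06 SE, adjusted p = 0.00017). TGFBR3 differed little, with log2 fold changes of -0.10 for EZH2i against CBPi and 0.07 for EZH2i against FSK that did not pass, and 0.17 ± 0.07 SE for CBPi against FSK (adjusted p = 0.035). The last was lost without CBPi replicate 1 (adjusted p = 0.165) or FSK replicate 1 (0.212) or 2 (0.0663), and in a fit of those groups alone (0.0772). ACVR1B passed for CBPi against FSK only, and by -0.14 on the log2 scale (adjusted p = 0.0227), a call lost under 6 of the alternatives listed at the end.

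The other genes of the pathway were taken from lists of ligands, receptors, SMAD proteins, convertases and targets. The counts of each list stand beside shares of 57.8% of all genes that passed with EZH2i, 58.9% with CBPi and 50.6% with FSK. Among 14 SMAD transducers and brakes tested, 10 rose and 1 fell with EZH2i, 11 rose and 1 fell with CBPi, and 8 rose and 4 fell with FSK. Their median log2 fold changes were 0.38, 0.41 and 0.18, against 0.02, 0.01 and 0.01 over all genes. PMEPA1, a SMAD-induced gene that sequesters receptor SMADs, changed most within this list. It was at 19.8 ± 0.47 CPM with EZH2i, 16.3 ± 0.5 with CBPi and 64.5 ± 3 with FSK, against 3.41 ± 0.62 at baseline, with log2 fold changes of 2.54, 2.26 and 4.24. SMAD7, the inhibitory SMAD, was at 63.7 ± 1.2 CPM with EZH2i and 62.6 ± 6.3 with CBPi, but 20.6 ± 1.4 with FSK, against 34.4 ± 1.5 at baseline. SMAD3, which carries the activin signal, likewise rose with EZH2i (log2 fold change 0.85) and CBPi (0.77) and fell with FSK (-0.81), and its partner SMAD2 rose with FSK (0.78). DAB2, an endocytic adaptor, was the gene that fell with both inhibitors, by 0.96 and 0.55 on the log2 scale with EZH2i and CBPi.

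Among 14 SMAD2/3 target genes tested, 7 rose and 2 fell with EZH2i, 7 rose and 4 fell with CBPi, and 4 rose and 7 fell with FSK. The list's median log2 fold change was 0.32, 0.48 and -0.55, against 0.02, 0.01 and 0.01 over all genes. TGFBI, a matrix target, rose with EZH2i (log2 fold change 1.84) and CBPi (1.42) and fell with FSK (-1.57). ID3, which answers mainly to SMADs of the BMP branch, did so as well, with log2 fold changes of 1.07, 0.74 and -1.61. LTBP2 and TGM2 fell with each treatment, so the list did not move as a block. No SMAD phosphorylation was measured.

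Of 17 other ligands of the TGF-β family 12 were tested. With EZH2i 6 rose and 2 fell, with CBPi 4 rose and 5 fell, and with FSK 5 rose and 3 fell. GDF15, a stress-induced member, changed most, at 18.2 ± 0.38 CPM with EZH2i, 37.5 ± 6.6 with CBPi and 38.7 ± 0.99 with FSK, against 2.47 ± 0.28 at baseline. BMP4 rose with EZH2i (log2 fold change 0.72) and CBPi (0.49) and fell with FSK (-1.30). Of 17 other receptors, coreceptors and decoys tested, 5 rose and 6 fell with EZH2i, 8 rose and 4 fell with CBPi, and 4 rose and 7 fell with FSK. BMPR2, a type II receptor that BMPs use beside the activin receptors, was at 155 ± 11 CPM with EZH2i, 193 ± 4.1 with CBPi and 81.7 ± 6.3 with FSK, against 53.9 ± 5.6 at baseline. BAMBI, a pseudoreceptor that blocks signalling, rose with EZH2i (log2 fold change 1.52) and fell with FSK (-0.91). NOG, which encodes the BMP antagonist noggin, rose with EZH2i (1.21) and CBPi (1.34) and fell with FSK (-3.57). Of 6 convertases and proteases, 2 rose and 1 fell with EZH2i, 1 rose and 2 fell with CBPi, and 3 rose and 1 fell with FSK. TLL1, a tolloid-like protease gene, is counted among the 2 that rose with EZH2i. It was at 0.957, 0.927 and 1.09 CPM with EZH2i and 0.0456, 0 and 0.047 at baseline, and at 0 in every CBPi and FSK library. It came past the filter on low counts only through its EZH2i libraries, so its call there is no independent evidence of a rise. Its baseline level is too close to 0 for a fold change. PCSK6, which cleaves precursors of this family, was at 53.2 ± 0.6 CPM with EZH2i, 45.4 ± 1.2 with CBPi and 217 ± 7.7 with FSK, against 102 ± 7.7 at baseline.

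For the rise of INHBA with FSK, the cAMP and CREB targets are the list beside it. Of 14 tested, 3 rose and 6 fell with EZH2i, 4 rose and 7 fell with CBPi, and 9 rose and 4 fell with FSK. The median log2 fold changes were -0.04, -0.34 and 0.53, against 0.02, 0.01 and 0.01 over all genes. NR4A3, an orphan nuclear receptor gene induced by cAMP, was at 213 ± 10 CPM with FSK and 61.3 ± 1.7 at baseline, and at 19.5 ± 0.31 with EZH2i and 19.6 ± 1.9 with CBPi. INHBA also rose with CBPi, where NR4A3 fell and the list had 4 genes that rose and 7 that fell. The part of the cAMP or the stress response list in the rise of INHBA was not tested.

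**Figure D5:**
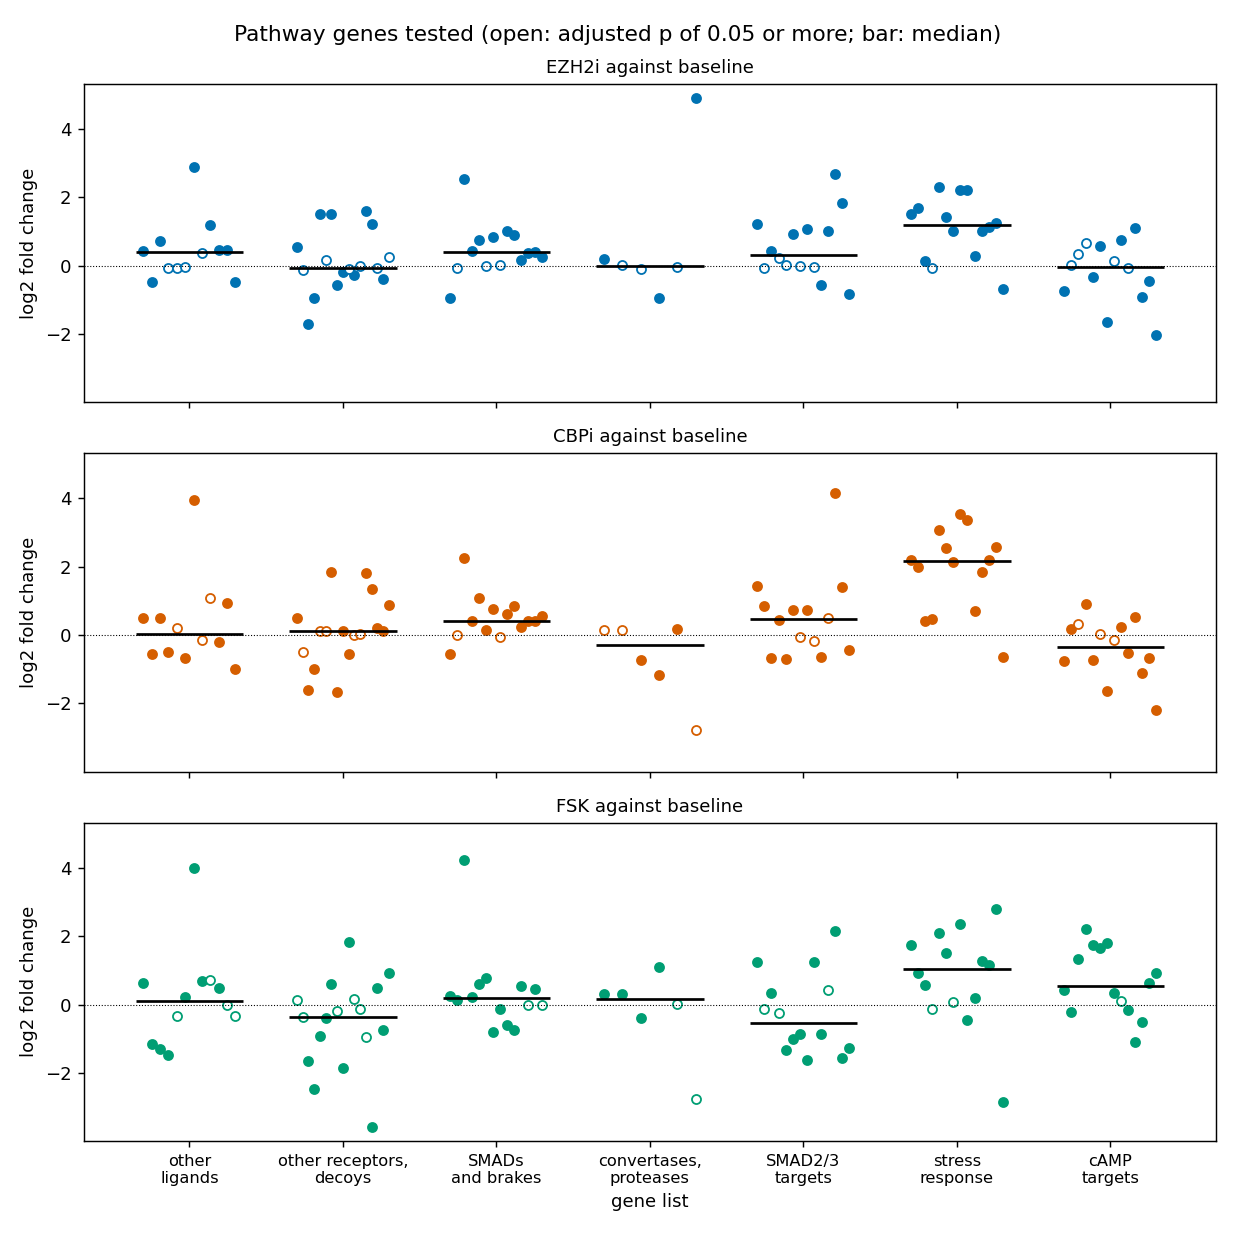
Log2 fold change against baseline of each pathway gene tested, by list, for EZH2i, CBPi and FSK from top to bottom. Filled points passed, open points did not, and bars are medians, which for the stress response are 1.18, 2.16 and 1.04 and for SMAD2/3 targets 0.32, 0.48 and -0.55.

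By Pearson correlation of log2 CPM over the 12 libraries, the genes most alike INHBA among 14857 compared were JOSD1 (r = 0.995), TRIB3 (0.993), PGPEP1 (0.988) and YARS1 (0.986). The levels of TRIB3, given above, took the same order of groups as INHBA. Those most alike INHBE were CNOT10 (0.988), AARS1 (0.987), MTHFD2 (0.986) and SLC43A1 (0.984). The nearest to INHA were ACSS1 (0.989), NANOGP1 (0.988), ARMCX2 and JPT2 (0.983 each), and to FST DDIT4L and KLHL5 (0.991 each), PRKD1 and APOL1 (0.988 each). KLHL5 averaged 71.5 CPM with EZH2i, 136 with CBPi, 32.3 with FSK and 77.2 at baseline, the order FST also took. These correlations are descriptions. The libraries share 4 group means and their scaling, and a gene with the same 4 group levels reaches a high value.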

How the data were processed

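Reads were aligned by STAR against hg38 and assigned to genes by featureCounts, per the submitters' processing notes. Tool versions, strand setting, annotation release and multimapping rules: not given in the sources used here. Expected counts, as the authors deposited them, are fractional in part (65.6% of non-zero values are whole within 1e-06). Beside them stand gene lengths, which the authors also deposited. Of the sample columns, 0 were left unmapped.

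The counts were rounded and passed to edgeR 4.0.16 (R 4.3.3). The 20360 genes kept by filterByExpr were scaled by TMM and fitted in 1 robust quasi-likelihood model of the 12 libraries, from which the 6 pairs of groups were tested. Benjamini-Hochberg adjustment ran over all genes tested, with a threshold of 0.05. The SE is the log2 fold change divided by the square root of F, and 95% intervals use the model's degrees of freedom. CPM per kb uses the deposited lengths. Symbols were matched for 60261 genes, positions come from GENCODE release 29, and promoters from RefSeq.

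The members, gene lists and tests were chosen with earlier results of these data known. All members are named. From each list some, not all, of the genes among the 4 largest changes that passed in a comparison with baseline, or going the other way, are named, and for INHA, INHBA, INHBE and FST the 4 genes most alike. CHGA, CHGB, INHBC, OBSL1, INHBA-AS1, ACVR2B-AS1 and ORC4 fall outside this rule and were picked after their values were seen. Alternatives were DESeq2 1.42.0, limma voom (limma 3.58.1), other scalings and filters, fits of the compared groups alone, a test against a fold of 1.5 and leaving out each library. The edgeR steps were tested on simulated data. Values of some single genes on the lists are not reported here.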

Additional observations from a re-analysis of the deposited data

How the results depend on the processing

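Each comparison was repeated with RLE, upper quartile and library-size scaling, without a filter, with at least 1 CPM in at least 3 libraries, with DESeq2, with limma voom, with the compared groups alone, against a fold of 1.5, and without each library in turn. Of the 216 results of single genes against baseline under the first 8 of these, 206 kept their direction and their side of the threshold. The fall of ACVR1B with CBPi no longer passed without a filter (-0.13, adjusted p = 0.0591), and 9 values that had not passed changed sign near 0. For FSK against baseline these were ACVR1B (0 with DESeq2 and RLE, -0.01 without a filter, -0.06 with library size), ACVR2A (0 with DESeq2 and RLE, -0.01 without a filter, -0.06 with library size) and FSTL3 (-0.03 with library size). For EZH2i against FSK, ACVR1B (0.04) and FSTL3 (0.02) changed sign with library size only, neither past the threshold, and TGFBR3 passed there (0.16, adjusted p = 0.0365).

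Against a fold of 1.5, of the 9 genes 4 passed with EZH2i (INHA, INHBA, INHBE and ACVR2B; 11.4% of all genes passed), 4 with CBPi (INHA, INHBA, INHBE and FST; 12.2%), 4 with FSK (11.8%), 3 for EZH2i against CBPi (4.88%), 4 for EZH2i against FSK (18.5%) and 4 for CBPi against FSK (15.3%). Leaving out 1 library, between 7 and 8 genes passed with EZH2i (50.9 to 54.4% of all genes), between 6 and 7 with CBPi (52.1 to 55.6%) and between 4 and 5 with FSK (44.1 to 46.5%). The 8 came without EZH2i replicate 2 and counted INHBB, which is not among the 9. Between treatments it was 5 to 6 for EZH2i against CBPi (37.3 to 41.2%), 5 for EZH2i against FSK (55.9 to 57.9%) and 4 to 7 for CBPi against FSK (53.1 to 56.4%). The 4 for CBPi against FSK came without FSK replicate 2. Log2 fold changes that changed sign had ranges of -0.11 to 0.05 (FSTL3, EZH2i against baseline), -0.04 to 0.04 and -0.01 to 0.02 (ACVR1B and ACVR2A, FSK against baseline), and -0.15 to 0.01 and -0.01 to 0.08 (FSTL3 and INHBE, EZH2i against FSK), none of them past the threshold. The ratio of INHBA to INHA differed from baseline by between 3.85 and 4.16 log2 units with EZH2i, between 6.26 and 6.64 with CBPi and between 3.49 and 3.71 with FSK. ACVR1B for CBPi against FSK lost its call against a fold of 1.5, with library size only (adjusted p = 0.212), without a filter (0.0754), with those groups alone (0.0549), without CBPi replicate 2 (0.0851) and without FSK replicate 2 (0.129). The cause of these shifts was not tested. No paired analysis was possible because the labels give no replicate numbers. The numbers used here were assigned within each group in the order of the sample titles. At 5 to 20 counts per library, INHBB is limited by depth.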
